A study of Mus musculus with 6 samples.

Results

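The sensors of double-stranded RNA and the adaptors that relay their signal were examined in the mouse pancreas. The set held 9 genes, chosen by name and matched by Ensembl identifier, out of 22556 genes with values: Ddx58, Ifih1, Dhx58, Mavs, Tlr3, Ticam1, Eif2ak2, Zbp1 and Adar. Total pancreas RNA from wild-type C57BL/6 mice aged 8 weeks was sequenced in 3 groups of 2 samples. Saline mice served as controls, AP mice received caerulein, a peptide that overstimulates acinar cells and causes acute pancreatitis (AP), and in polyI:C-pretreated AP mice caerulein was preceded by polyI:C, which is a synthetic form of double-stranded RNA. All 3 groups therefore shared genotype, strain, age and tissue, and differed in caerulein and polyI:C. No group analysed here received polyI:C without caerulein, and the sources used here do not give the interval between polyI:C and caerulein for the sequenced mice. The labels do not say that the 2 samples of a group came from separate animals, so the p-values measure the spread between these samples, which may in part be technical.

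Double-stranded RNA is rare in healthy cells and is read as a sign of infection or of misplaced self RNA. RIG-I and MDA5 detect it in the cytosol and signal through MAVS on mitochondria, while TLR3 detects it in endosomes and signals through TRIF, the product of Ticam1, and both routes lead to type I interferon. PKR, ZBP1 and ADAR1 also bind double-stranded nucleic acid and respectively stop translation, start cell death and edit the RNA so that the other sensors ignore it. Interferon in turn raises the transcription of many of these sensors, and polyI:C is a known ligand of TLR3 and of the cytosolic sensors.

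Levels are given as TPM, a transcript abundance in which reads are divided by gene length and summed to the same total in every sample, so levels of different genes can be compared on this scale. Differences are given as log2(TPM + 0.5) with the standard error (SE) from limma, a linear model fitted to the 16814 genes whose mean reached 1 TPM, and all 9 genes passed this filter. A gene was called raised or lowered where it changed at least 2-fold and its adjusted p (Benjamini-Hochberg) did not exceed 0.05. In bulk tissue, a difference in the number of expressing cells and a difference in RNA per cell cannot be told apart. The reads per library, estimated from the spacing of low values, ranged from 3296942 in a saline sample to 10852546 in a polyI:C-pretreated AP sample, with both saline libraries below the other 4, so low levels were measured least precisely in the saline group.

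Of the 9 genes, 7 were raised and 0 lowered in AP against saline samples, by limma and also at an unadjusted p, and 5 were raised by voom on estimated reads. Of all tested genes, 18.2% were raised and 4.03% lowered in this comparison. At an unadjusted p, 3406 of the 16814 tested genes were raised, and 1783 by voom. The median difference of the 9 genes was 1.86 on the log2 scale, against 0.45 for all tested genes. When the values were rescaled to remove this general shift (median-of-ratios scaling), 6 of the 9 genes were raised, against 9.03% of all tested genes, and the split over all genes went from 3053 raised and 677 lowered to 1513 and 1272. Between polyI:C-pretreated AP and AP samples, 2 of the 9 genes, Dhx58 and Zbp1, were raised and 0 lowered, against 0.44% of all tested genes raised and 0.404% lowered. With median-of-ratios scaling the count was again 2, against 0.4% of all genes raised. In polyI:C-pretreated AP against saline samples, 7 genes were raised and 0 lowered, against 16.9% and 2.97% of all tested genes, and 7 genes were raised with median-of-ratios scaling, against 7.62%. The 3 comparisons share samples pairwise and are given side by side, not as independent results.

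**Figure D1:**
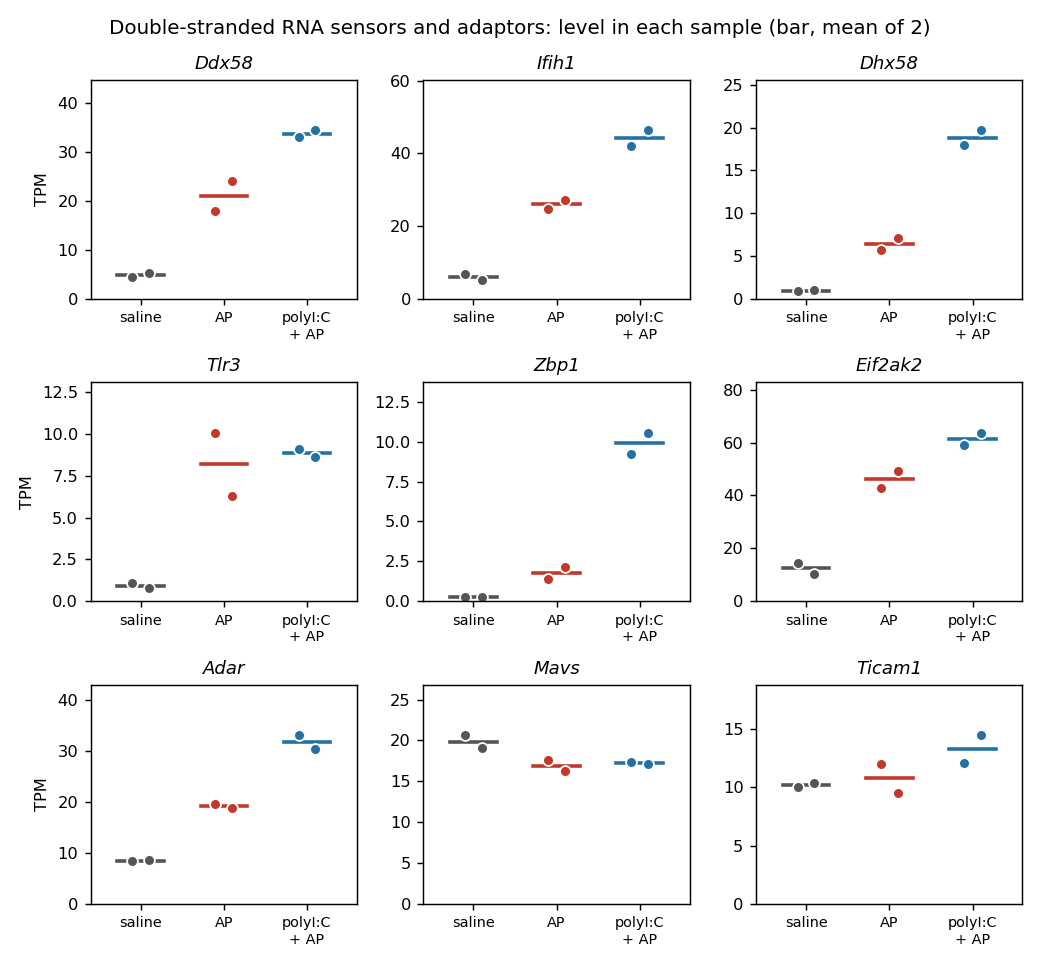
Level of each of the 9 genes in TPM (vertical axes, from 0) in the 6 samples of the 3 groups, with points for samples and bars for the group means. For 7 genes both AP samples lie above both saline samples, whereas Mavs and Ticam1 stay between 9.52 and 20.6 TPM in all 6 samples.

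Ddx58 encodes RIG-I, the helicase that recognises short double-stranded RNA with a 5′ triphosphate end. It lies on chromosome 4 (ENSMUSG00000040296, GRCm38 40203773 to 40239828, minus strand). Its level was 4.40 and 5.34 TPM in the saline samples, 17.8 and 24.1 TPM in the AP samples, and it reached 32.9 and 34.3 TPM with polyI:C pretreatment. The 3 groups did not overlap, and each step was upward. Ddx58 rose by 1.99 (SE 0.17, limma adjusted p = 0.000319) in AP against saline samples. The difference between polyI:C-pretreated AP and AP samples was 0.68 (95% interval 0.27 to 1.10, limma adjusted p = 0.142) and did not pass the threshold, while that against saline was 2.67 (limma adjusted p = 0.000131).

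Ifih1 encodes MDA5, the helicase that assembles along long double-stranded RNA (ENSMUSG00000026896, chromosome 2, 62595798 to 62646255, minus strand). The saline samples held 6.81 and 5.10 TPM, the AP samples 24.8 and 27.2 TPM, and the pretreated AP samples 42.0 and 46.4 TPM. Again the groups were fully separated and in the same order as for Ddx58. Ifih1 rose by 2.05 (SE 0.15, limma adjusted p = 0.000184) in AP against saline samples, and the difference between the pretreated and the AP samples was 0.75 (95% interval 0.39 to 1.12, limma adjusted p = 0.0809). Against saline, the difference of the pretreated samples was 2.80 (limma adjusted p = 7.42e-05).

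Dhx58 encodes LGP2, the third member of the family, which lacks the signalling domains of the other two and modulates them (ENSMUSG00000017830, chromosome 11, 100694884 to 100704271, minus strand). It was near 1 TPM in saline samples (0.858 and 1.05 TPM, about 4.10 reads each), at 5.69 and 7.15 TPM in AP samples, and at 18.0 and 19.7 TPM in polyI:C-pretreated AP samples. Dhx58 was raised by 2.24 (SE 0.23, limma adjusted p = 0.000542) in AP samples and by a further 1.49 (SE 0.23, 95% interval 0.95 to 2.03, limma adjusted p = 0.0417) in pretreated samples. Against saline, the difference was 3.73 (limma adjusted p = 0.000107), and the mean TPM was 19.7 times that of the saline samples. Its exons share 141 bases (4.31% of their length) with the antisense gene Dhx58os, and the strand setting of the authors' counting is not given in the sources used here.

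Letters of the interferon-stimulated response element, the short sequence that interferon-activated transcription factors bind, were searched in the promoters, on both strands, as GAAA followed by any 2 bases and a second GAAA. RefSeq promoter windows (GRCm38.p6, 250 bases before to 50 bases after a transcription start) were found for 7 of the 9 genes. The windows of 3 genes held a match, and the sites are shown because all 3 lie just downstream of the start, and because 3 of 7 (42.9%) compares with 1079 of 27025 genes (3.99%) and 1131 of 32851 windows (3.44%) overall. The sites are read along the minus strand from 5′ to 3′, in the direction of transcription. This strand, whose sequence matches the RNA, is the one called transcribed in the labels below. Capitals mark the 10 bases of the match, the 2 free bases included.
Ddx58 (chr4:40239804-40239833, match on the opposite strand): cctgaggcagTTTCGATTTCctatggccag
Ifih1 (chr2:62646206-62646233, match on the transcribed strand): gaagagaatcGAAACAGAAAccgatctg
Eif2ak2 (chr17:78882535-78882564, match on the transcribed strand): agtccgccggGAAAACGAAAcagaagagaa

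The match begins 2 bases after the first transcribed base in Ddx58, 18 bases after it in Eif2ak2 and 32 bases after it in Ifih1. The windows of Tlr3, Ticam1 and Mavs and the 3 windows of Adar, each at a different start, held no match of these letters. The 3 genes with a match were raised in AP samples, as were Tlr3 and Adar without one. Among interferon-stimulated genes other than the sensors, 7 of 15 genes with a window (46.7%) had a match. A match is a description of these letters only.

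**Figure D2:**
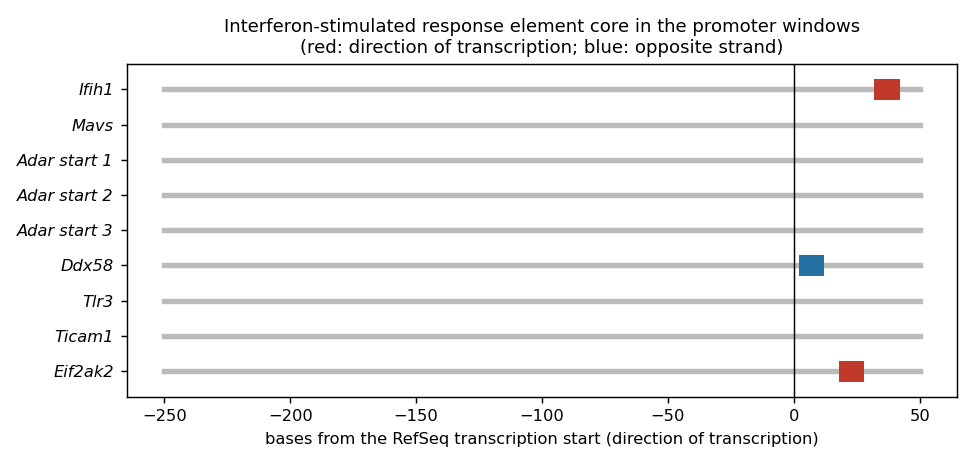
Matches to the response element letters (boxes, red along the direction of transcription and blue on the opposite strand) in the 300-base promoter windows of 7 genes, with distance from the RefSeq transcription start in bases on the horizontal axis and 3 starts for Adar. The boxes of Ifih1, Ddx58 and Eif2ak2 lie between the start and the end of the window.

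Mavs encodes the mitochondrial adaptor that both RIG-I and MDA5 need (ENSMUSG00000037523, chromosome 2, 131234063 to 131248025, plus strand). Its levels were 20.6 and 19.0 TPM in saline samples, 17.6 and 16.2 TPM in AP samples, and 17.4 and 17.1 TPM in pretreated AP samples. Both AP and both pretreated samples lay below the saline samples by a small margin, while the AP and the pretreated samples overlapped. The difference was -0.22 in AP against saline (95% interval -0.58 to 0.14, limma adjusted p = 0.292) and 0.03 in pretreated against AP samples (95% interval -0.33 to 0.39, limma adjusted p = 0.965). With median-of-ratios scaling the difference against saline was -0.66 in AP samples (limma adjusted p = 0.0158), below 2-fold, so the size of any decline depends on the scaling. The adaptor therefore did not show the rise of the 2 receptors above it under either scaling.

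Tlr3 encodes the endosomal receptor of double-stranded RNA (ENSMUSG00000031639, chromosome 8, 45395665 to 45411080, minus strand). It was at 1.10 and 0.783 TPM in saline samples, 10.1 and 6.29 TPM in AP samples, and 9.12 and 8.64 TPM in pretreated AP samples. The difference between AP and saline samples was 2.56 (SE 0.28, limma adjusted p = 0.000678), with about 8.36 and 4.84 reads behind the saline values. Both pretreated samples lay between the 2 AP samples. The difference between those groups was 0.15 (95% interval -0.51 to 0.81, limma adjusted p = 0.877), an interval that leaves room for a change of either sign below 2-fold. An antisense gene, Gm45542, shares 381 bases (7.32%) of the exons.

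Ticam1 encodes TRIF, the adaptor that carries the signal of TLR3 (ENSMUSG00000047123, chromosome 17, 56269319 to 56276786, minus strand). Its levels were 10.1 and 10.4 TPM in saline samples, 12.04 and 9.52 TPM in AP samples, and 12.1 and 14.5 TPM in pretreated AP samples. The 2 AP samples enclosed the saline values. The difference was 0.06 in AP against saline (95% interval -0.46 to 0.58, limma adjusted p = 0.856) and turned to -0.37 with median-of-ratios scaling (limma adjusted p = 0.256). Both pretreated samples lay above both AP samples, by 0.29 on average (95% interval -0.22 to 0.81, limma adjusted p = 0.627). In this endosomal pair too, the receptor was raised in AP samples and the adaptor did not pass the threshold.

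Eif2ak2 encodes PKR, the kinase that phosphorylates eIF2alpha and halts translation when it binds double-stranded RNA (ENSMUSG00000024079, chromosome 17, 78852564 to 78882573, minus strand). It was at 14.4 and 10.4 TPM in saline samples, 43.0 and 49.2 TPM in AP samples, and 59.0 and 63.7 TPM in pretreated AP samples. All 3 groups were separated, and Eif2ak2 had the highest level of the 9 genes in each AP and each pretreated sample. Its rise was 1.86 (SE 0.17, limma adjusted p = 0.000361) in AP against saline samples. The further difference was 0.41 (95% interval 0.0081 to 0.81, limma adjusted p = 0.350), which was below 2-fold over its whole interval and did not pass after adjustment.

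Zbp1 encodes a sensor of left-handed nucleic acid that can start necroptosis (ENSMUSG00000027514, chromosome 2, 173206612 to 173218923, minus strand). It was the lowest of the 9 genes in saline samples, at 0.242 and 0.298 TPM, which rest on about 1.25 reads each. The AP samples held 1.41 and 2.16 TPM and the polyI:C-pretreated AP samples 9.24 and 10.6 TPM. Zbp1 was raised by 1.55 (SE 0.31, limma adjusted p = 0.00807) in AP samples and by a further 2.20 (SE 0.31, 95% interval 1.46 to 2.95, limma adjusted p = 0.0332) in pretreated samples, the larger of the 2 calls in that comparison. Both saline libraries gave the same estimate, here taken as 1 read in each. On that unit 25 reads in AP and 167 in pretreated samples stood against 2 in saline samples. On the TPM scale the ratio to saline was then 6.84 in AP samples, with an exact binomial interval from 1.71 to 59.6, and 37.3 in pretreated samples, with an interval from 10.2 to 311. These intervals cover counting error only.

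Adar encodes ADAR1, which edits adenosine in double-stranded RNA and so restrains MDA5 and PKR (ENSMUSG00000027951, chromosome 3, 89715022 to 89753446, plus strand). Its levels were 8.31 and 8.56 TPM in saline samples, 19.6 and 18.7 TPM in AP samples, and 33.1 and 30.5 TPM in pretreated AP samples. The groups were well separated, and the spread within a group was small. Adar was raised by 1.14 (SE 0.11, limma adjusted p = 0.000461) in AP samples, a call that fell below 2-fold with median-of-ratios scaling (0.71, limma adjusted p = 0.00379). In pretreated against AP samples the difference was 0.71 (SE 0.11, 95% interval 0.45 to 0.98, limma adjusted p = 0.0437), past the p-value threshold but below 2-fold. Without the fold limit, 3 of the 9 genes were raised in this comparison, against 0.714% of all tested genes. The exons share 1365 bases (16.8%) with Chrnb2 on the opposite strand, the largest such share among the 9 genes.

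**Figure D3:**
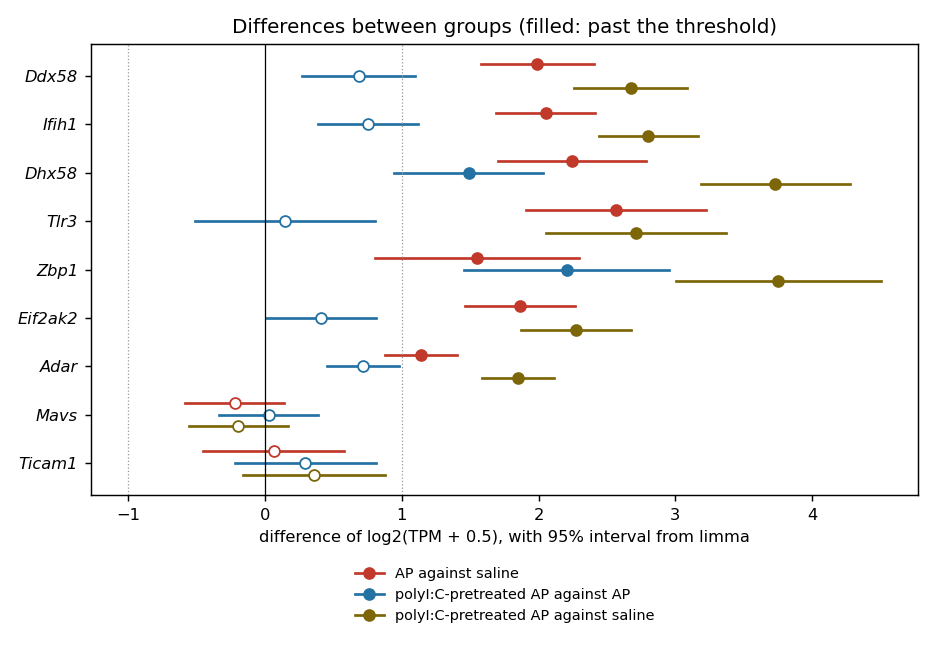
Differences of log2(TPM + 0.5) for the 9 genes (horizontal axis, with 95% intervals from limma) in the 3 comparisons, with filled points for genes past the threshold and dotted lines at 2-fold. Against AP samples, the filled points are Dhx58 at 1.49 and Zbp1 at 2.20.

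Counted without a test, both AP samples lay above both saline samples for 7 of the 9 genes, against 52.6% of all tested genes, and below them for 1 gene, Mavs, against 16.4%. Both pretreated samples lay above both AP samples for 7 genes, against 27.7%, and below them for 0 genes, against 22.1%. The exceptions were Mavs and Tlr3. Both pretreated samples lay above both saline samples for 8 genes, against 54.4%, and below them for 1 gene, again Mavs, against 14%. The median difference of the 9 genes between pretreated and AP samples was 0.68, against 0.04 for all tested genes. With any 1 of the 6 libraries left out, neither Dhx58 nor Zbp1 kept its call there. Each of these fits leaves 1 group with 1 sample and no spread of its own. The difference was then 1.34 to 1.64 for Dhx58 and 1.96 to 2.44 for Zbp1, past 2-fold each time.

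The order of the 9 levels was not the same in the 3 groups. In saline samples Mavs was highest at 19.8 TPM ± 1.13 (SD, n = 2), followed by Eif2ak2 at 12.4 ± 2.83 and Ticam1 at 10.2 ± 0.243, so that both adaptors stood above the RIG-I-like receptors and Tlr3. The lower Eif2ak2 sample and the higher Ticam1 sample were nearly level. Adar followed, then Ifih1 and Ddx58, whose sample ranges overlapped, then Dhx58 and Tlr3, which also overlapped, and Zbp1 was lowest. In AP samples Eif2ak2 was highest at 46.1 ± 4.41, and Ifih1, Ddx58 and Adar were all above Mavs, Ddx58 by a narrow margin in its lower sample. The ranges of Ddx58 and Adar overlapped there, as did those of Ticam1 and Tlr3 and those of Tlr3 and Dhx58. In polyI:C-pretreated AP samples the order began with Eif2ak2 at 61.4 ± 3.30 and Ifih1 at 44.2 ± 3.11, the ranges of Ddx58 and Adar overlapped again, Dhx58 had moved from below Tlr3 to just above Mavs, and Tlr3 at 8.88 ± 0.345 was the lowest of the 9 genes, next to Zbp1 at 9.90 ± 0.934.

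Other genes of these pathways were taken from 8 lists, given here by counts and medians with no test of a list. Of all tested genes, 18.2% were raised in AP against saline, 0.44% in pretreated against AP and 16.9% in pretreated against saline samples. With median-of-ratios scaling these shares were 9.03%, 0.4% and 7.62%. By voom, 1783 and 112 of 16814 genes were raised in the first 2 comparisons. At an unadjusted p, 327 were raised in pretreated against AP samples. The relay between receptors and interferon genes held 17 tested genes, of which 5 were raised in AP against saline samples, with a median of 0.54 against 0.45 for all genes. They included Irf7, a transcription factor of interferon genes (2.00, limma adjusted p = 0.00179), Unc93b1, the chaperone of endosomal receptors (1.79, limma adjusted p = 0.000510, from 10.3 to 36.9 TPM), and Tradd, an adaptor of the MAVS complex (1.70, limma adjusted p = 0.00619). The other two were the kinase gene Ikbke (1.52) and the ubiquitin ligase gene Traf3 (1.05). In pretreated against AP samples 1 gene of the relay was raised, and the median was -0.00. That gene was Irf7, at 3.15 and 6.14 TPM in AP samples and at 79.0 and 79.2 TPM in pretreated samples, a rise of 4.01 (SE 0.28, limma adjusted p = 0.00371). Against saline, the difference of Irf7 was 6.01 (limma adjusted p = 4.21e-05), larger than that of any of the 9 sensors and adaptors.

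Of 9 inhibitors of these receptors and adaptors, 1 was raised in AP against saline samples: Tnfaip3, the ubiquitin-editing enzyme A20, from 1.80 to 11.8 TPM (2.41, limma adjusted p = 0.000207). Their median was 0.40, near that of all genes, and 0 of them passed the threshold in pretreated against AP samples by limma, at an unadjusted p or by voom on estimated reads. Among 18 other proteins that bind or process double-stranded RNA, 3 were raised in AP samples (against 18.2% of all tested genes), with a median of 0.56. With median-of-ratios scaling 1 was raised and 1 lowered, with a median of 0.12, and by voom 1 was raised. The 3 genes were Ilf2 (1.52), a subunit of a nuclear RNA-binding complex, and Drosha and Tarbp2 (1.15 each), which act in microRNA processing. In the pretreated against AP comparison 0 of the 18 passed by limma, 1 at an unadjusted p and 1 by voom. Ddx60, a helicase linked to RIG-I signalling, was raised against saline, from 2.18 to 31.1 TPM (3.68, limma adjusted p = 0.00122).

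The OAS enzymes make the second messenger that activates RNase L when they bind double-stranded RNA, and 8 of the 9 listed genes had values. In AP against saline samples 6 of the 8 were raised (against 18.2% of all tested genes), with a median of 1.71. The count was 5 with median-of-ratios scaling and 2 by voom. Between pretreated and AP samples 3 of them were raised (against 0.44%), with a median of 2.42 beside the 0.68 of the 9 sensors and adaptors. The count was 6 at an unadjusted p and 4 by voom. Oas1a rose from 2.35 to 20.1 TPM in AP samples (2.84, limma adjusted p = 0.000493) and to 126 TPM in pretreated samples (2.66 against AP, limma adjusted p = 0.0161). Oasl2 (2.94) and Oas1g (2.93) were the other two past the threshold against AP samples, both with a limma adjusted p of 0.0161. Oas1 genes are near-identical copies, so reads may be split among them and their single values are uncertain.

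Interferon-stimulated genes that are not sensors of double-stranded RNA had values for 21 of 22 listed genes, and 20 were tested. In AP against saline samples 15 were raised (against 18.2% of all tested genes), with a median of 1.57. The count was 10 with median-of-ratios scaling and 11 by voom. Rsad2, which makes an antiviral nucleotide, rose from 3.44 to 82.6 TPM (4.39, limma adjusted p = 3.40e-05). In pretreated against AP samples 7 were raised (against 0.44%), with a median of 1.01. The count was 10 at an unadjusted p and 10 by voom. Among the 7 were Ifit1 (3.23, limma adjusted p = 0.0312), Ifi44 (3.08, limma adjusted p = 0.00469) and Isg15, a ubiquitin-like modifier, from 10.01 to 69.7 TPM (2.81, limma adjusted p = 0.0247). Against saline all 20 tested genes of this list were raised (against 16.9%), and 18 with median-of-ratios scaling (against 7.62%). Dhx58 and Zbp1 had differences within the range of this list, which ran from -0.20 to 3.23 in pretreated against AP samples.

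Of the interferons and their receptors, 5 of 11 listed genes had values and 4 were tested, all of them receptor chains. Ifnlr1 (1.82), Ifnar2 (1.25) and Ifnar1, from 17.5 to 40.4 TPM (1.18, limma adjusted p = 0.000596), were raised in AP against saline samples. Of all tested genes, 18.2% were. The receptor count fell to 1 with median-of-ratios scaling and to 2 by voom. In pretreated against AP samples 0 of the 4 passed by limma, at an unadjusted p or by voom, and the median was -0.25. Ifna5 was listed at 0 in 5 samples and at 1.95 TPM in the second AP sample. Ifnb1 and 5 further listed interferon genes were not analysed here.

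The lists around PKR and ZBP1 gave other patterns. The first holds the substrate of PKR, the other eIF2alpha kinases and stress-response genes, so it is no readout of PKR alone. In the eIF2alpha kinase branch, 6 of 12 genes were raised in AP against saline samples (against 18.2% of all tested genes), with a median of 1.13. The largest differences were those of the stress-response genes Atf3, from 4.18 to 112 TPM (4.75, limma adjusted p = 0.000344), Trib3 (3.01) and Sesn2 (2.03). In pretreated against AP samples 0 of the 12 passed by limma, at an unadjusted p or by voom, and the median was -0.41, with both pretreated samples below both AP samples for 10 of 12 genes, against 22.1% of all tested genes. The medians of this branch and of the 9 sensors and adaptors, which include the kinase gene Eif2ak2, thus had opposite signs there. Among the partners of ZBP1 in cell death, 4 of 6 tested genes were raised in AP samples (against 18.2% of all tested genes). They were Mlkl, the effector of necroptosis, from 2.81 to 37.7 TPM (3.58, limma adjusted p = 0.000213), Ripk3 (2.25), Casp8 (1.67) and Casp6 (1.20). The count was 3 with median-of-ratios scaling and 2 by voom. In pretreated against AP samples 0 of the 6 passed by limma, at an unadjusted p or by voom, and the median was 0.07, while Zbp1 itself was raised by 2.20.

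**Figure D4:**
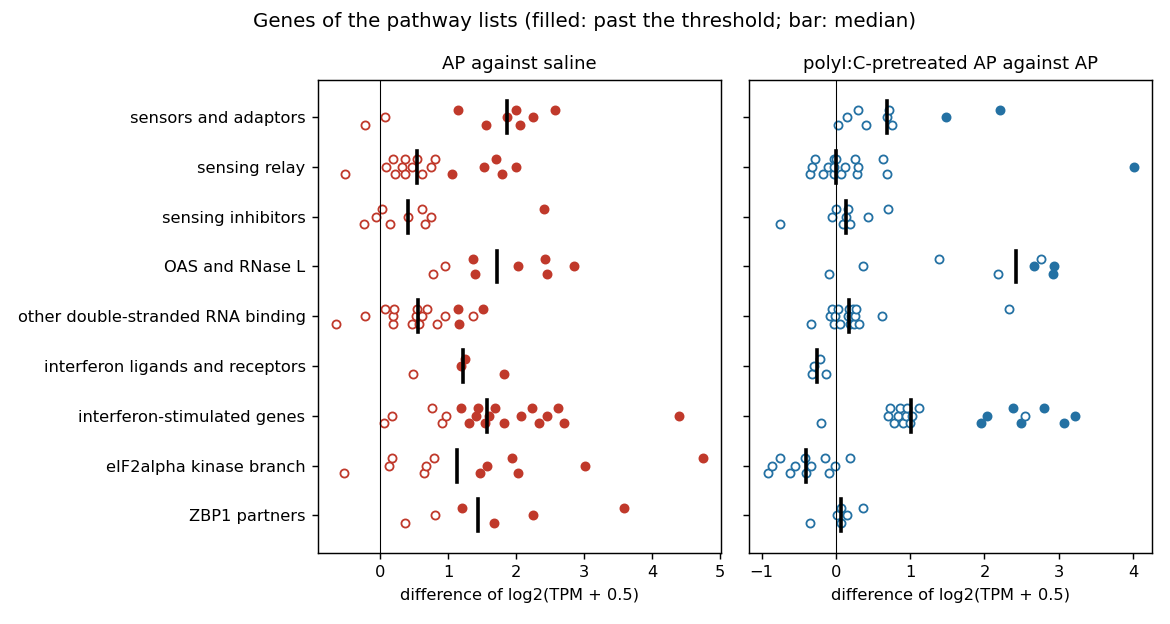
Differences of log2(TPM + 0.5) (horizontal axes) for the 9 sensors and adaptors and the tested genes of 8 pathway lists, with filled points past the threshold and bars at the medians. Between pretreated and AP samples the medians run from -0.41 for the eIF2alpha kinase branch to 2.42 for the OAS enzymes and RNase L.

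The genes with the most similar profile over the 6 samples were found by the distance between centred log2 values, among 10391 protein-coding genes whose mean reached 5 TPM. Mgst1 (distance 0.147) and Atg9b (0.226) were nearest to Ifih1, and Uba7 (0.364) and Rnf213 (0.365) to Ddx58. Lgals3bp (0.225) and B2m (0.414) were nearest to Zbp1, and H2-K1 (0.586) and Xaf1 (0.604) to Dhx58, the loosest match of the 9. The mean level of B2m was 208 TPM in saline samples, 576 TPM in AP samples and 3329 TPM in pretreated AP samples. Igdcc4 (0.163) and Lpin3 (0.210) were nearest to Adar, Cenpj (0.332) and Dock11 (0.333) to Eif2ak2, and Plp2 (0.364) and Alpk1 (0.411) to Tlr3. Mavs was nearest to Fam185a (0.0755) and Eef2k (0.0849), and Ticam1 to Ypel1 (0.152) and Rprd1a (0.156). These distances are a description of 6 samples, and no test was made of them.

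Markers of some cell types moved with the groups. The summed level of 11 macrophage and monocyte markers was 482 to 744 TPM in saline, 2742 to 3186 TPM in AP and 676 to 817 TPM in pretreated samples. Of the 11, 8 were raised in AP samples, while 3 were lowered in pretreated against AP samples. Most of the AP sum was Lyz2 (1891 and 2118 TPM), which was at 203 and 119 TPM in pretreated samples. Cd14 was at 218 and 222 TPM in AP and at 216 and 209 TPM in pretreated samples. The 7 neutrophil markers with values summed to 5.15 to 16.6 TPM, 59.9 to 69.4 TPM and 20.9 to 44.3 TPM in the same order, and Elane was at 0 in all saline and AP samples. The 6 duct markers summed to 262 to 309 TPM in saline, 1305 to 1330 TPM in AP and 1143 to 1159 TPM in pretreated samples. The 5 of 13 acinar markers with values summed to 705 to 829 TPM in saline, 305 to 354 TPM in AP and 645 to 663 TPM in pretreated samples, and 2 of the 5 were lowered in AP against saline samples and 2 raised in pretreated against AP samples. Their part in the rise of the 7 genes was not tested.

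The 9 markers of T and NK cells summed to 5.19 to 6.56 TPM in saline, 2.37 to 6.39 TPM in AP and 32.2 to 53.3 TPM in pretreated samples, and most of the last came from Gzma, at 26.9 and 47.0 TPM and listed at 0 in the other 4 samples. Cd3e, the defining T cell marker, stayed at or below 0.349 TPM in all 6 samples. Markers of plasmacytoid dendritic cells, known as strong producers of interferon, summed to 2.29 to 2.98 TPM in saline, 2.28 to 4.37 TPM in AP and 1.74 to 1.76 TPM in pretreated samples. Those of conventional dendritic cells summed to 31.8 to 41.0, 27.5 to 33.7 and 23.8 to 27.8 TPM, and 0 of the 4 tested were called. Most of this sum was Zbtb46, at 32.7 and 26.1, 16.3 and 18.7, and 19.9 and 17.4 TPM. Flt3 (1.78 and 2.53 TPM) and Batf3 (1.56 and 3.03 TPM) were instead highest in the AP samples. B cell markers were at 5.89 to 42.0 TPM in AP samples, against 11.02 to 13.7 TPM in saline and 2.19 to 8.99 TPM in pretreated samples. Endothelial markers (50.2 to 83.3, 64.0 to 64.8 and 58.0 to 80.3 TPM) and fibroblast and stellate markers (634 to 855, 802 to 976 and 710 to 834 TPM) overlapped between groups in their sums. Of the 8 fibroblast and stellate markers, however, 4 were raised in AP against saline and 3 in pretreated against saline samples. Col3a1, a collagen gene, was at 72.4 and 31.9 TPM in saline and 302 and 348 TPM in AP samples, while the abundant Dcn was at 671 and 540 TPM and at 308 and 425 TPM. Islet markers summed to 1849 to 2198, 1752 to 2327 and 1295 to 1643 TPM, and red blood cell markers to 206 to 239, 134 to 292 and 44.1 to 73.3 TPM. The part of Gzma-bearing cells in the levels of Dhx58 and Zbp1 was not tested.

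**Figure D5:**
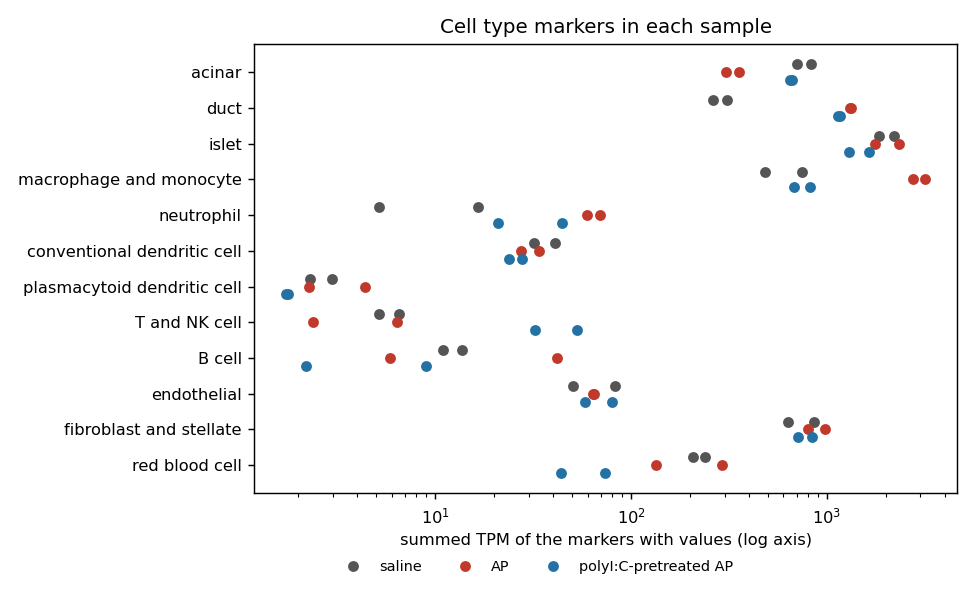
Summed TPM of the markers with values for 12 cell types (horizontal axis, logarithmic), with 1 point for each of the 6 samples. Macrophage and monocyte markers are highest in the 2 AP samples (2742 and 3186 TPM), and T and NK cell markers in the 2 polyI:C-pretreated AP samples (32.2 and 53.3 TPM). Most of the former sum is Lyz2 (1891 and 2118 TPM), and most of the latter is Gzma (26.9 and 47.0 TPM).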

How the data were processed

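Pancreas RNA of 6 samples, 2 in each of 3 groups, was analysed, grouped by the treatment in the labels, which place all 6 libraries in the same lane. According to the methods and the submitters' processing notes, Trimmomatic trimmed the reads, STAR aligned them to mm10, htseq-count assigned them to genes and DESeq2 served the authors' own comparisons. TPM values per gene were deposited by the authors. The step from counts to TPM and the strand setting are not given in the sources used here. The paper names a stranded mRNA kit and the labels also name a ribosomal depletion kit. Genes were matched to GENCODE M21 (22490 of 22556 identifiers).

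limma 3.58.1 (R 4.3.3) was fitted to log2(TPM + 0.5) of all 6 samples across the 16814 genes whose mean reached 1 TPM, with 1 coefficient per group, a variance prior following log2(mean TPM × exon length + 1), and Benjamini-Hochberg adjustment over all tested genes. Differences of low genes are understated by the pseudocount of 0.5. An exact test of 2 against 2 samples cannot go below p = 0.333. Reads per library were estimated from the spacing of low TPM values, counting a value as whole within 0.1 up to 20 reads, and the estimates limit the precision of low levels. The fit was tested on simulated data. Same-numbered samples did not deviate together (correlations 0.0075, -0.00385 and 0.0351), so no block was used. Alternatives covered the pseudocount, filter, scaling, prior, block, samples, each left-out library and, chosen after seeing the data, voom on estimated reads.

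The 9 genes, the pathway lists and the markers were chosen with earlier results of these data known. Named besides the 9 genes are, for each list and comparison, up to 3 genes past the threshold with the largest change, the 2 genes most like each of the 9, and markers. Irf7, Ifna5, Gzma, Elane, Cd3e, Lyz2, Cd14, Retnlg, S100a8, Zbtb46, Flt3, Batf3, Col3a1 and Dcn values per sample were given after they were seen. Ikbke, Traf3 and Casp6 were named after theirs were. Promoter windows were read from RefSeq. Protein sequences were not analysed here.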

Additional observations from a re-analysis of the deposited data

How the results depend on the processing

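For AP against saline and for polyI:C-pretreated AP against saline, the number of sensors and adaptors past the threshold stayed within 1.5 times the reported 7 under all 18 alternatives (5 to 7 and 6 to 7). For pretreated against AP samples the reported 2 genes fell to 0 with a pseudocount of 0.1, with no filter on low values, with no trend in the prior, with the prior trend on the mean log2 value and with only the 4 samples compared, and to 1 with a mean of at least 5 TPM, where Zbp1 was not tested, and with upper-quartile scaling. Leaving out any 1 of the 6 libraries gave 0 genes (range 0 to 0), at adjusted p from 0.0521 to 0.364 for Dhx58 and from 0.0507 to 0.351 for Zbp1, and a group with 1 sample was then assumed to vary like the others. In each of these fits with all 9 genes tested, Dhx58 and Zbp1 stayed past 2-fold and an unadjusted p of 0.05. With the replicate block the count was 1, although the replicate numbers do not pair the samples. The count stayed at 2 with a pseudocount of 1, with median-of-ratios scaling and by voom. Over all genes, this comparison gave between 0 and 322 calls at an adjusted p, the highest by voom. For Adar the limma adjusted p exceeded 0.05 with a pseudocount of 0.1 (0.0519), no filter (0.0609), upper-quartile scaling (0.0565) and the block (0.0634). It also did with no prior trend (0.179), the trend on the mean (0.113) and only the 4 samples (0.0502). It stayed below 0.05 with a pseudocount of 1, a mean of at least 5 TPM, median-of-ratios scaling and voom. The difference of Adar was 0.654 to 0.772 with 1 library left out, and Adar did not pass the p-value threshold in any of those fits. The cause of these losses was not tested.

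The difference of Ticam1 changed sign in AP against saline with median-of-ratios scaling (-0.37), upper-quartile scaling (-0.37) and voom (-0.21), and ranged from -0.0999 to 0.224 with 1 library left out. Against saline, that of pretreated samples turned to -0.10 and -0.13 under the same 2 scalings. The difference of Mavs between pretreated and AP samples was -0.019 with upper-quartile scaling and -0.0303 to 0.0859 with 1 library left out, and that of Tlr3 was -0.175 to 0.467. In AP against saline, Adar fell below 2-fold with median-of-ratios scaling (0.71), upper-quartile scaling (0.70) and voom (0.94), and Zbp1 lost its call with only the 4 samples compared (adjusted p = 0.113), by voom (2.31, adjusted p = 0.0627) and without the second AP library (1.31, adjusted p = 0.0637).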
